A study of Mus musculus with 4 samples.

Results

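Inhibitory receptors of lymphocytes were followed through 7 genes, chosen by symbol from the 32285 genes counted in both libraries: Pdcd1, Lag3, Havcr2, Tigit, Ctla4, Cd160 and Tox. For 5 of them, all but Lag3 and Tox, an antibody tag against the protein was read in the same cells. The study profiled mouse heart cells by CITE-seq, in which transcripts and antibody-bound surface proteins are counted together as unique molecular identifiers (UMIs). The anti-CD40 group was C57BL6J mice given an antibody that activates CD40, and the isotype group was C57BL6J mice given a rat IgG. Each group was 1 library made from the pooled hearts of 4 mice, so variation between mice cannot be seen, and no test between the groups was possible. Dose, time and the age of the mice are not stated in the labels used here. The labels name a sort on CD45 and exclusion of DAPI, while the series description names DRAQ5 in place of CD45.

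Inhibitory receptors limit the activation of T cells and natural killer (NK) cells. They appear or increase when these cells are stimulated, and several carry cytoplasmic motifs that recruit phosphatases or other proteins that dampen signalling. Their ligands sit on antigen-presenting, endothelial and other cells, and lasting joint expression of several receptors is a known mark of exhausted T cells, in which the nuclear protein TOX maintains the programme. In the mouse heart, loss of PD-1 or CTLA-4 is known to permit myocarditis.

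In build GRCm38.p6, Pdcd1 spans chr1:94038305-94052553, Ctla4 chr1:60909025-60915832, Havcr2 chr11:46454931-46481255 and Tigit chr16:43626137-43665125. Lag3 spans chr6:124904359-124912434, Cd160 chr3:96798763-96829351 and Tox chr4:6686353-6991557. The bases just upstream of 3 members are shown because these genes differed between the libraries and stimulation-linked motifs lay in these windows. They are RefSeq sequences of build GRCm38.p6, 250 bases each, read 5′ to 3′ on the gene's strand. Capitals mark GGAAA, the core bound by NFAT, on either strand, or the AP-1 motif TGANTCA.
Pdcd1, chr1:94052554-94052803, minus strand: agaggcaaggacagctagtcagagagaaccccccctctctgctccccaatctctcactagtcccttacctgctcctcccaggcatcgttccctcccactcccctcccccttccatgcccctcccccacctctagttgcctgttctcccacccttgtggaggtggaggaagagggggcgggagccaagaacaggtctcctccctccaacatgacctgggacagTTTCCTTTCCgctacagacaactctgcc
Ctla4, chr1:60908775-60909024, plus strand: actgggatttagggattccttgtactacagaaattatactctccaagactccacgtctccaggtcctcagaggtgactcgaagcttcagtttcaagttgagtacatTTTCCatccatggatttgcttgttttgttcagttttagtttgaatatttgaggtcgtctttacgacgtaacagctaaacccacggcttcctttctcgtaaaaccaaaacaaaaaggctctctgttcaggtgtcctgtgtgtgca
Havcr2, chr11:46454681-46454930, plus strand: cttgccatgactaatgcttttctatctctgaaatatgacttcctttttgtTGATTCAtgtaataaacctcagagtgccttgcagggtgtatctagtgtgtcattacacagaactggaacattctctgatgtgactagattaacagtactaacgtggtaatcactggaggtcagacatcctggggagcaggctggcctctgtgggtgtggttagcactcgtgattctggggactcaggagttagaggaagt
The Pdcd1 window held 2 adjoining copies of the NFAT core, the Ctla4 window 1 copy, and the Havcr2 window 1 AP-1 motif. The NFAT core occurred in 55.6% and the AP-1 motif in 6.75% of 32851 promoter windows of the same length, so a match is common for the first and a description only for both. 2 interferon-linked motifs were searched alongside, TTCNNNGAA (7.02% of windows) and the interferon-stimulated response element (2.98%), whose letters can overlap the NFAT core. Neither was found in these 3 windows.

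The deposited files held 7087 anti-CD40 and 4908 isotype barcodes, of which 4278 (60.4%) and 2558 (52.1%) had under 10% mitochondrial UMIs and at least 200 genes and were kept; no barcode was removed for its gene number alone. The kept cells held 47485251 and 22687435 gene UMIs, with medians of 8285 and 5446 UMIs. T cells were barcodes with at least 2 UMIs of Cd3d, Cd3e and Cd3g together, 376 in the anti-CD40 and 101 in the isotype library. NK cells were barcodes outside the T gate with at least 3 UMIs of Ncr1, Klrb1c and Klre1, 174 and 136. Markers that the gates did not use were checked. Among T cell receptor constant segments, Trbc2 was seen in 86.2% of anti-CD40 and 86.1% of isotype T cells. Trac was seen in 71.5% and 61.4% and Trbc1 in 57.2% and 63.4% of T cells. Prf1, the pore protein of killer cells, was seen in 90.2% and 93.4% of NK cells. Trbc2 was also seen in 50.6% and 31.6% and Trbc1 in 67.8% and 53.7% of NK cells, whereas Trac was seen in 6.90% and 4.41%. NK cells differed between the libraries in Eomes, seen in 33.9% and 63.2%, and in the CD49b tag, with medians of 8 and 114 UMIs. Many T cells also carried transcripts of other cells. The NKp46 tag was found on 98.9% and 99.3% of NK cells, but also on 84.3% and 92.1% of T cells, so tag detection alone did not separate these classes. Macrophage markers (C1qa, C1qb, C1qc and 5 others) summed to 10759 CPM (UMIs per 1000000 of the pooled cells) in anti-CD40 and 7674 CPM in isotype T cells, against 16386 and 16213 CPM in macrophages, and B cell markers (Cd79a and 4 others) summed to 67.0 and 1064 CPM in T cells. The B cell gate was also passed by 7 of 376 anti-CD40 (1.86%) and 28 of 101 isotype T cells (27.7%). These barcodes held 256011 of 6269512 anti-CD40 and 1009396 of 1783187 isotype gene UMIs of the T cells. Pooled isotype T cell levels thus rest largely on them. No doublet caller was run; T cells with under 10 macrophage marker UMIs, 164 and 46, are given separately and called macrophage-free. In them B cell markers still summed to 12.8 and 316 CPM. CD8 T cells (Cd8a or Cd8b1 but no Cd4) made up 70.2% of anti-CD40 and 35.6% of isotype T cells, so pooled T cell levels also reflect a different mix. The libraries shared 13 barcodes.

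In T cells, 6 of the 7 members were higher in the anti-CD40 library, and the seventh, Tigit, was near its detection limit in both. Of all genes with at least 30 UMIs over both libraries, 10.2% were at least 1.5-fold higher and 10.5% at least 1.5-fold lower in anti-CD40 T cells, after 10 CPM was added to each level. Without the minimum of 30 UMIs, 6.54% of 16268 genes were higher. All 6 members that had 30 UMIs were at least 1.5-fold higher. Their median log2 ratio was 1.16, against -0.05 over the 10417 genes. With 50 CPM added instead, only Pdcd1 stayed above 1.5-fold, and the share of all genes was not counted at that setting. TMM and median-of-ratios scaling shift T cell levels by 0.17 and 0.19 on the log2 scale before the 10 CPM are added, which took Pdcd1, at 2.30, to 2.38 and 2.39 and Tox, at 1.04, to 1.17 under both. All intervals below are 95% intervals that cover counting error alone. T cells that passed no other gate, with the NK and monocyte gates not considered, were 176 and 44. There Pdcd1, Lag3, Havcr2 and Ctla4 each had 1 isotype UMI. Their ratios were 30.5 (5.38 to 1215), 19.0 (3.32 to 760), 11.7 (2.01 to 473) and 16.7 (2.90 to 668). Tox had a ratio of 3.19 (1.68 to 6.81). Cd160 had a ratio of 1.38 (0.82 to 2.46), and its interval included 1.

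**Figure D1:**
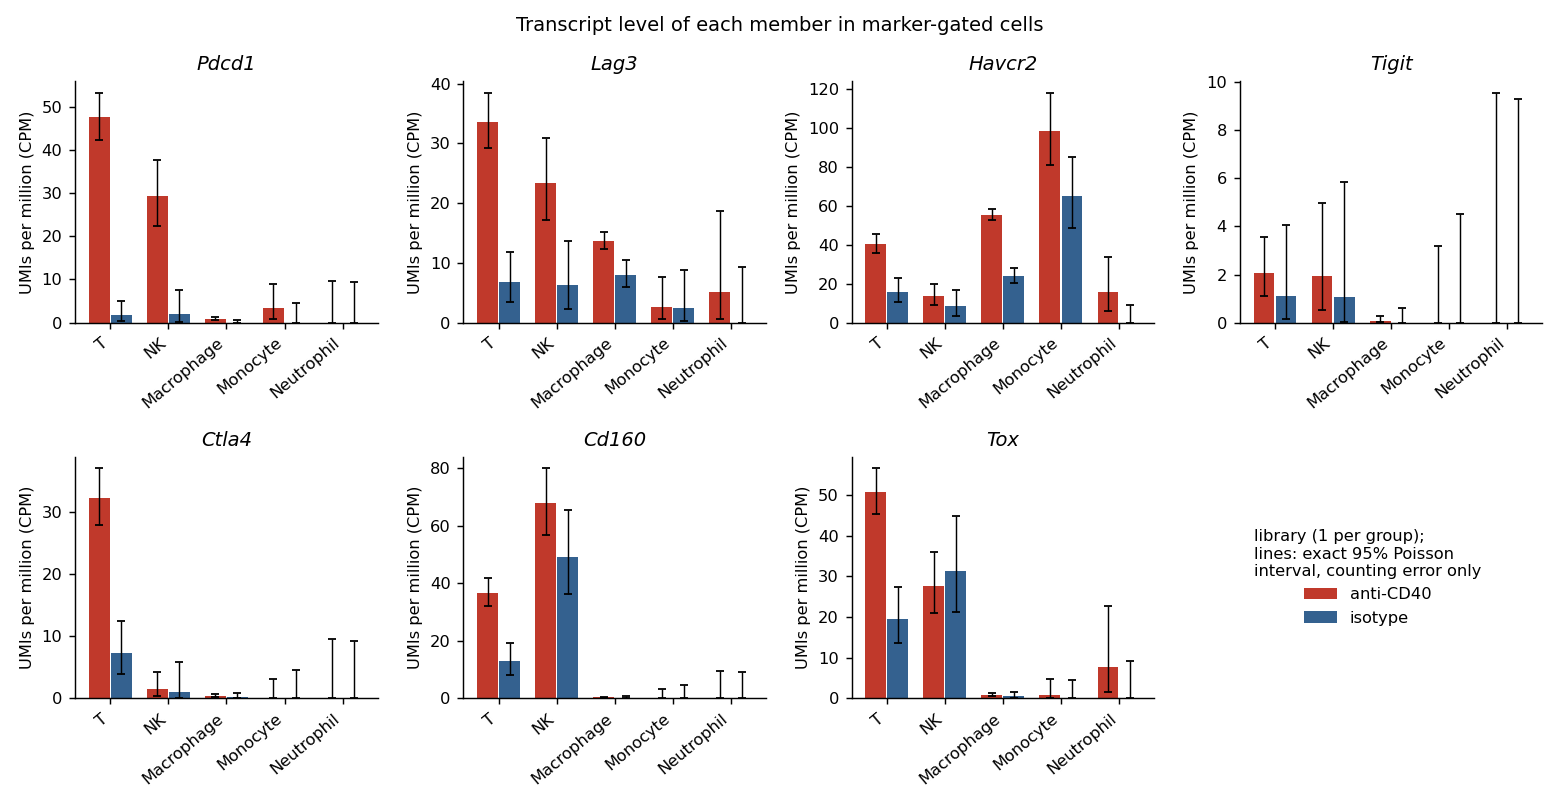
Transcript level of each of the 7 members (y axis, CPM, linear, own scale per gene) in 5 marker-gated classes, with anti-CD40 bars in red left of isotype bars in blue; black lines are exact 95% Poisson intervals. Pdcd1 stood at 47.5 CPM in anti-CD40 T cells against 1.68 CPM in isotype T cells, while Havcr2, among the classes drawn, was highest in monocytes.

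Pdcd1 encodes PD-1, which recruits the phosphatase SHP-2 to the stimulated T cell receptor and its co-receptor CD28. It had 298 UMIs in 141 of 376 anti-CD40 T cells and 3 UMIs in 2 of 101 isotype T cells. These counts correspond to 47.5 CPM (42.3 to 53.3) and 1.68 CPM (0.35 to 4.92), a 28.3-fold ratio whose interval, 9.57 to 138, is wide because of the 3 isotype UMIs. This was the highest ratio among the members in T cells, although its interval overlaps that of Lag3. Per 1000 Cd3 UMIs, Pdcd1 had 55.5 UMIs in anti-CD40 and 2.94 in isotype T cells, and on that scale the ratios of Lag3, Ctla4, Cd160, Tox and Havcr2 were 3.34, 2.95, 1.90, 1.73 and 1.72. In CD8 T cells, Pdcd1 had 222 UMIs in the anti-CD40 library and none in the isotype library. That is 9.93-fold higher when the isotype library is set to 3 counts, and the exact interval starts at 8.01. In macrophage-free T cells it stood at 118 and 9.98 CPM, an 11.8-fold ratio (3.96 to 58.2). The difference was thus also present in the CD8 and in the macrophage-free cells taken alone.

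Lag3 encodes a CD4-like receptor that binds MHC class II. It had 211 UMIs in 124 anti-CD40 T cells and 12 UMIs in 9 isotype T cells, or 33.7 and 6.73 CPM, a 5.00-fold ratio (2.80 to 9.83). In CD8 T cells the levels were 35.2 and 5.02 CPM. Without macrophage transcripts the gap widened to 75.1 against 3.33 CPM, the isotype value resting on 1 UMI. Lag3 was also present in macrophages, at 13.7 CPM in the anti-CD40 and 7.96 CPM in the isotype library, a 1.73-fold ratio (1.28 to 2.37). Macrophages held 51.8% of all Lag3 UMIs of the anti-CD40 library and T and NK cells together 35.3%, against 41.0% and 14.8% in the isotype library. These shares also follow class sizes. Of the kept anti-CD40 and isotype cells, macrophages were 50.2% and 27.4%, T cells 8.79% and 3.95%, and NK cells 4.07% and 5.32%.

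Havcr2 encodes TIM-3, a receptor for galectin-9 and phosphatidylserine that myeloid cells also carry. It had 253 UMIs in 134 anti-CD40 T cells and 28 UMIs in 16 isotype T cells, or 40.4 and 15.7 CPM, a 2.57-fold ratio (1.74 to 3.95). T cells with macrophage transcripts held 216 of the 253 UMIs in the anti-CD40 library and all 28 in the isotype library. In macrophage-free T cells 37 anti-CD40 UMIs (33.9 CPM) remained against 0 isotype UMIs. That is 3.40-fold higher with the isotype library set to 3 counts, and the exact interval starts at 2.63. In CD4 T cells, 11 and 22, Havcr2 was at 108 and 19.4 CPM. In myeloid cells, Havcr2 stood at 98.3 against 65.0 CPM in monocytes and at 55.5 against 24.0 CPM in macrophages, again the anti-CD40 library first. Conventional dendritic cells, only 4 and 32, had 4 and 48 UMIs, or 65.8 (17.9 to 168) and 101 CPM (74.5 to 134). The macrophage ratio was 2.31 (1.95 to 2.75), close to that in T cells, and the part of macrophage RNA in the pooled T cell value was not tested beyond the macrophage-free cells.

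Ctla4 encodes CTLA-4, which takes CD80 and CD86 away from the activating receptor CD28. It had 202 UMIs in 83 anti-CD40 T cells and 13 UMIs in 8 isotype T cells, or 32.2 and 7.29 CPM, a 4.42-fold ratio (2.53 to 8.44). Ctla4 was the member most confined to T cells, with 88.2% of its anti-CD40 UMIs and 72.2% of its 18 isotype UMIs there. Its level in anti-CD40 T cells was 22.1-fold (7.44 to 108) that in anti-CD40 NK cells. Its level was highest in the few CD4 T cells, with 44 UMIs in 11 anti-CD40 cells (190 CPM) against 5 UMIs in 22 isotype cells (13.9 CPM), while CD8 T cells held 107 of the 202 anti-CD40 UMIs. Foxp3, the factor that defines regulatory T cells, was seen in 5 anti-CD40 and 2 isotype T cells. The Ctla4 ratio depended on cell cycle state. In cycling T cells (a UMI of Mki67 or Top2a), 233 and 15, it was 1.16 (0.62 to 2.48), at 32.1 and 27.6 CPM. In the other T cells, 143 and 86, it was 15.4 (4.97 to 77.1), at 32.5 and 2.11 CPM, the isotype value resting on 3 UMIs. In CD8 T cells Ctla4 stood at 24.0 and 6.69 CPM, the isotype value resting on 4 UMIs. In macrophage-free T cells it stood at 50.4 and 16.6 CPM, a 3.03-fold ratio (1.22 to 9.70). In macrophage-free CD8 T cells, with 38 and 3 UMIs, the ratio was 2.04 (0.65 to 10.3) and its interval included 1.

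Cd160 encodes a receptor for the herpesvirus entry mediator HVEM on cytotoxic lymphocytes. It had 230 UMIs in anti-CD40 and 23 UMIs in isotype T cells, or 36.7 and 12.9 CPM, a 2.84-fold ratio (1.85 to 4.58). That ratio depended on the cells taken. In CD8 T cells it was 7.69 (2.59 to 37.7), from 172 and 3 UMIs, but in macrophage-free T cells it was 1.34 (0.79 to 2.42), at 76.0 and 56.5 CPM, and its interval included 1. In macrophage-free CD8 T cells the Cd160 ratio was 3.54 (1.16 to 17.6), at 87.5 and 24.7 CPM, from 66 and 3 UMIs. T cells with neither Cd4 nor Cd8 transcripts held 18 of the 23 isotype UMIs, at 41.6 CPM in the anti-CD40 and 29.1 CPM in the isotype library.

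Tox encodes a nuclear regulator of exhausted T cells and is the only member that is not a receptor. It had 318 UMIs in anti-CD40 and 35 UMIs in isotype T cells, or 50.7 and 19.6 CPM, a 2.58-fold ratio (1.82 to 3.78). In macrophage-free T cells the levels were 119 and 43.2 CPM. In T cells with neither Cd4 nor Cd8 transcripts they were 25.7 and 21.0 CPM, a 1.22-fold ratio (0.61 to 2.60) that includes 1. Cells that passed both the T and the NK gate, 63 and 15, went the other way, with 31.04 CPM in the anti-CD40 and 77.7 CPM in the isotype library, from 40 and 14 UMIs, a ratio of 0.40 (0.21 to 0.80).

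Tigit encodes a receptor for PVR and nectins that competes with the activating receptor CD226. It had 13 UMIs in anti-CD40 and 2 in isotype T cells, or 2.07 CPM (1.104 to 3.55) and 1.12 CPM (0.14 to 4.05). A difference was not detectable at this depth.

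**Figure D2:**
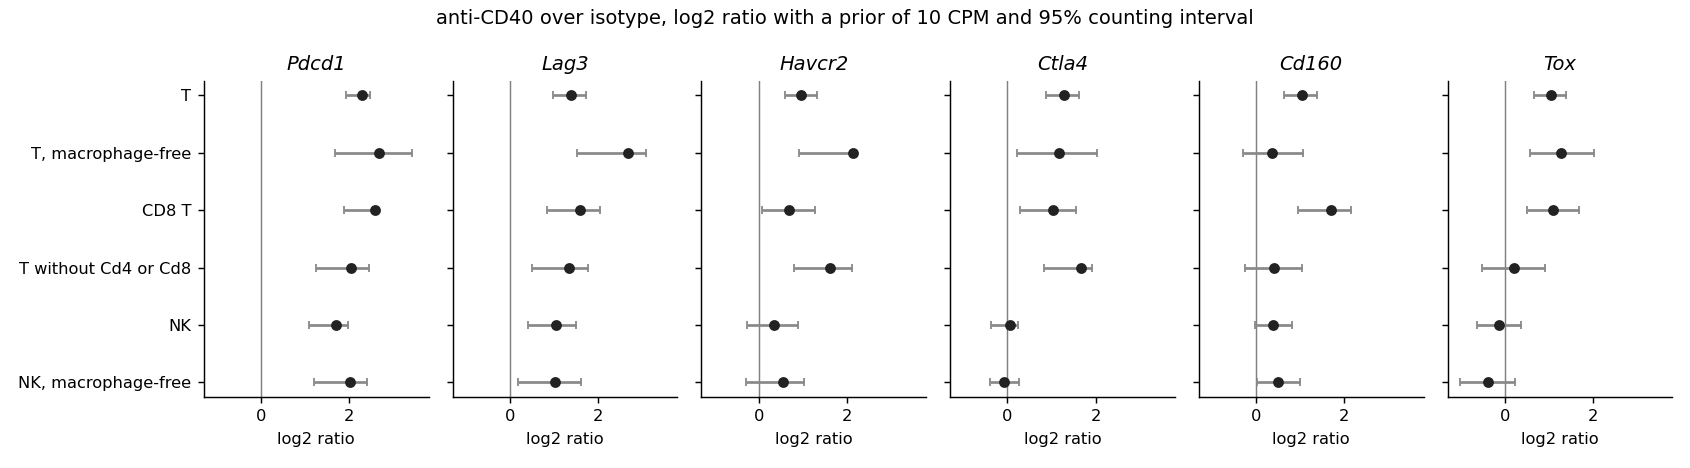
Log2 ratio of anti-CD40 over isotype (x axis, prior of 10 CPM added to both levels) for the 6 members other than Tigit in 4 T cell and 2 NK cell sets (rows); points are values and lines 95% counting intervals. Pdcd1 and Lag3 lay right of 0 with their intervals in every set drawn, whereas Tox in NK cells was at -0.13 and Cd160 in macrophage-free T cells at 0.37 with an interval across 0.

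Over all NK cells, Pdcd1 and Lag3 were higher in the anti-CD40 library, and for the other members the intervals of the ratio included 1. Differences between NK and T cells in these ratios were not tested. In NK cells, 2 of the 5 members with 30 UMIs were at least 1.5-fold higher in the anti-CD40 library, against 9.46% of 8212 genes (6.44% of 14482 without the minimum); 14.3% of the 8212 were at least 1.5-fold lower. The members' median log2 ratio was 0.39, against -0.10 over all these genes. With 50 CPM added, 1 member stayed above 1.5-fold, and the share of all genes was not counted at that setting. TMM and median-of-ratios scaling shift NK cell levels by 0.21 and 0.19 before the 10 CPM are added, which took Pdcd1, at 1.70, to 1.79 and 1.78 and Tox, at -0.13, to 0.02 and 0.01.

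Pdcd1 had 60 UMIs in 25 of 174 anti-CD40 NK cells and 2 UMIs in 1 of 136 isotype NK cells, or 29.2 and 2.10 CPM, a 13.9-fold ratio (3.70 to 118). In macrophage-free NK cells, 124 and 123, it stood at 43.1 and 3.19 CPM. Lag3 had 48 and 6 UMIs, or 23.4 and 6.29 CPM, a 3.72-fold ratio (1.59 to 10.6). Havcr2 was at 13.6 and 8.38 CPM with a ratio of 1.63 (0.72 to 4.13), and its interval included 1. Cd160 was at 67.7 CPM (56.9 to 79.9) in the anti-CD40 and 49.2 CPM (36.2 to 65.5) in the isotype library, a ratio of 1.38 (0.98 to 1.96). In macrophage-free NK cells the Cd160 ratio was 1.48 (1.01 to 2.21), with an interval just above 1. Tox was at 27.8 and 31.4 CPM, a ratio of 0.88 (0.56 to 1.42), so neither direction could be told from counting error. Ctla4 (3 and 1 UMIs) and Tigit (4 and 1 UMIs) were at or near the detection limit.

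The order of T and NK cells differed by gene. Cd160 was higher in NK than in T cells in both libraries, 1.85-fold (1.48 to 2.29) in the anti-CD40 and 3.82-fold (2.27 to 6.59) in the isotype library. In the anti-CD40 library Pdcd1, Lag3, Havcr2, Ctla4 and Tox were all higher in T cells, by 1.63-fold for Pdcd1 (1.23 to 2.18) and 1.83-fold for Tox (1.37 to 2.47). In the isotype library Tox had a T over NK ratio of 0.62 (0.37 to 1.05), and Pdcd1, with 3 and 2 UMIs, could not be ordered. Outside T and NK cells, Pdcd1, Tigit, Ctla4, Cd160 and Tox were each at or under 1 CPM in macrophages of both libraries.

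Shares of cells with a transcript were compared after drawing 1000 UMIs from every cell. In that comparison 17 of 370 anti-CD40 T cells (4.6%, 2.70 to 7.25) and 0 of 101 isotype T cells had a Pdcd1 UMI, and 0 of 101 allows a share of up to 2.97% by the limit of 3 counts, or 3.59% by the exact interval. The 6 anti-CD40 T cells under 1000 UMIs were left out. Before thinning the shares were 37.5% and 1.98%, with medians of 12123 and 10669 UMIs per cell. In neutrophils, which should lack PD-1, 0 of 139 anti-CD40 and 0 of 117 isotype cells had a Pdcd1 UMI at the same depth. Lag3 was seen in 14, Havcr2 in 15 and Ctla4 in 12 of the 370 anti-CD40 T cells and in 0 of the 101 isotype T cells. For each of these genes, and for Pdcd1, the exact intervals of the libraries overlapped at this depth. Havcr2 was also seen in 5.36% of anti-CD40 and 2.00% of isotype macrophages at this depth. Cd160 was seen in 21 anti-CD40 and 4 isotype T cells, and Tigit in 1 and 0. Tox was seen in 27 anti-CD40 T cells (7.30%) and 3 isotype T cells (2.97%), with overlapping intervals.

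Members were also seen together more often in anti-CD40 T cells, in which most members were each higher. Whether they met in the same cell beyond what their separate levels give was not tested. With cells thinned to 2000 UMIs, 41 of 356 anti-CD40 T cells (11.5%, 8.39 to 15.3) and 0 of 101 isotype T cells had UMIs of at least 2 members. Macrophage-free cells gave 28 of 144 (19.4%) and 0 of 46. Without thinning the shares were 57.7% and 16.8% of T cells, and the most members in 1 cell were 6 and 3. In NK cells thinned alike, 6 of 169 anti-CD40 and 2 of 127 isotype cells had at least 2 members, with overlapping intervals.

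**Figure D3:**
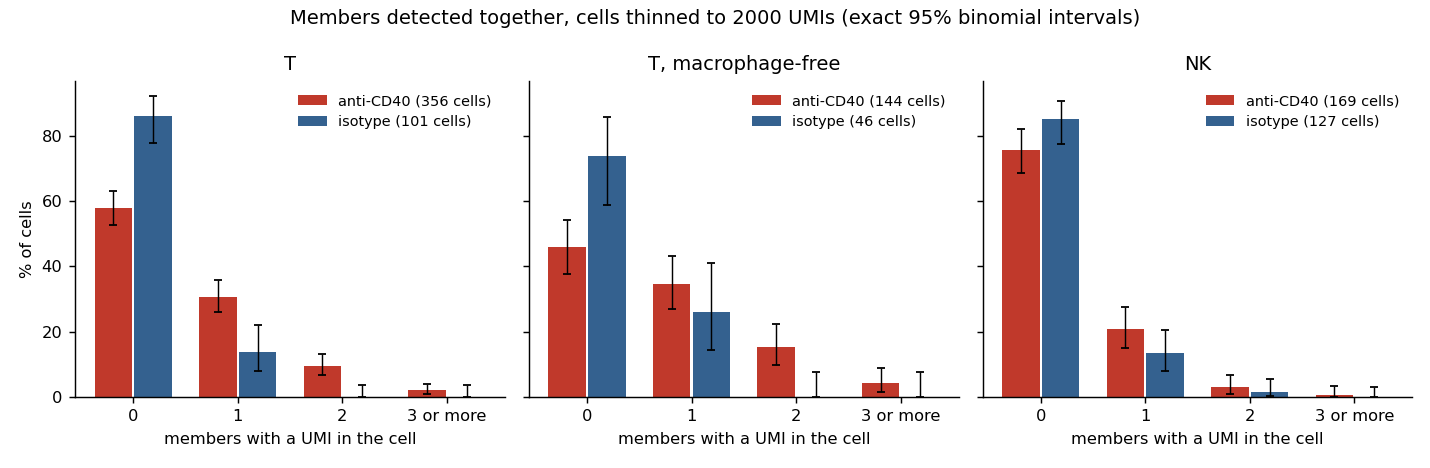
Share of cells (y axis, %) by the number of members with a UMI (x axis) after thinning to 2000 UMIs, for T cells, macrophage-free T cells and NK cells, anti-CD40 in red left of isotype in blue; lines are exact 95% binomial intervals. No isotype T cell had more than 1 member, against 41 of 356 anti-CD40 T cells.

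Within the anti-CD40 library, T cells with a Pdcd1 UMI (141) were set beside those without (235). Lag3 stood at 53.0 CPM in the cells with Pdcd1 and 19.0 CPM in those without, a 2.79-fold ratio (2.07 to 3.78). Tox was at 69.7 and 36.4 CPM, a 1.92-fold ratio (1.52 to 2.42). Havcr2 (48.6 and 34.2 CPM), Ctla4 (39.7 and 26.6 CPM) and Cd160 (43.8 and 31.4 CPM) were also higher in the cells with Pdcd1. In macrophage-free cells the Lag3 ratio was 4.27 (2.47 to 7.76), the Havcr2 ratio 4.05 (1.80 to 10.2), the Ctla4 ratio 1.81 (1.02 to 3.28) and the Tox ratio 1.67 (1.16 to 2.42), but the Cd160 ratio was 1.14 (0.73 to 1.80). In macrophage-free CD8 T cells, 48 with and 65 without Pdcd1, Lag3 had a ratio of 3.45 (1.95 to 6.45) and Havcr2 of 3.18 (1.22 to 9.72). There the intervals of Tox (1.42, 0.97 to 2.10), Ctla4 (1.72, 0.85 to 3.596) and Cd160 (1.45, 0.86 to 2.46) included 1. Tcf7, a factor of naive and memory-like T cells, was at 8.16 and 15.4 CPM in all anti-CD40 T cells, but its ratio was 0.51 (0.23 to 1.09) in macrophage-free and 0.85 (0.34 to 2.05) in macrophage-free CD8 cells. Mki67, a proliferation gene, had a ratio of 1.12 in all these T cells but 0.76 in the macrophage-free ones, so its direction was not stable. Cells with Pdcd1 were deeper, with a median of 13573 UMIs against 11709, and all came from 1 library.

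Surface protein was read for 5 members. The PD-1 tag had a median of 8 UMIs per cell in anti-CD40 T cells and 1 UMI in isotype T cells, and 71.0% and 17.8% of these cells had at least 5. Scaled to all tag UMIs of the T cells, PD-1 made up 15.1 and 3.58 per 10000, a 4.22-fold ratio (3.77 to 4.75). Scaled to the 9 control antibodies instead, the direction turned round, with a log2 ratio of -0.43 against 2.08. A single anti-CD40 T barcode held 10027 of the 11507 control tag UMIs of that group (87.1%), nearly all of 1 control antibody. With the barcode of each library that had the most control tags left out, a step added after the reversal was seen, the control-scaled log2 ratio was 2.50. In NK cells, PD-1 made up 11.4 and 3.30 per 10000, a 3.46-fold ratio (2.85 to 4.23), or 1.79 on the log2 scale. Taken as the median centred log ratio over cells, the NK difference was only 0.14.

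The tag followed the transcript within cells. Of the anti-CD40 T cells with a Pdcd1 UMI, 89.4% had at least 5 PD-1 tag UMIs, against 60.0% of those without. In anti-CD40 NK cells the shares were 84.0% of 25 cells with and 19.5% of 149 cells without a Pdcd1 UMI, although those without were the deeper, with medians of 7569 and 8874 UMIs. PD-1 tag was also read on cells without the transcript: endothelial cells, with 0 Pdcd1 UMIs in both libraries, had medians of 8 and 4 tag UMIs, at 6.85 and 8.63 per 10000. Macrophages had a median of 1 in both libraries.

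**Figure D4:**
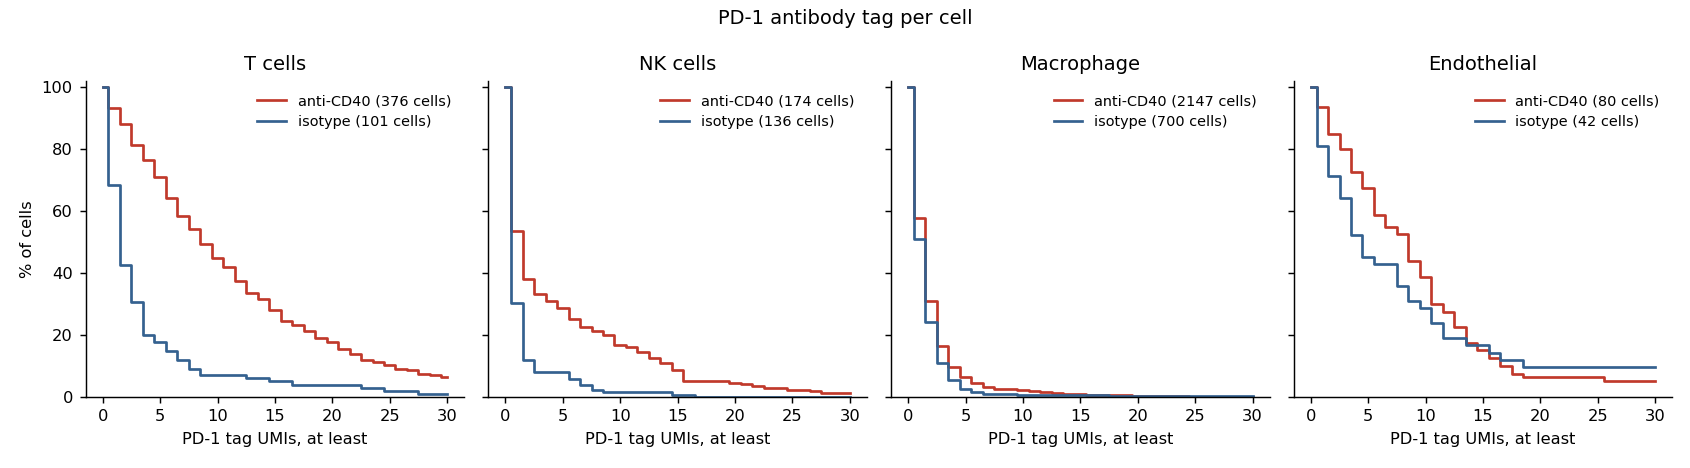
Share of cells (y axis, %) with at least the number of PD-1 tag UMIs on the x axis in 4 classes, anti-CD40 in red and isotype in blue. The curves stand apart in T cells, where 71.0% of anti-CD40 and 17.8% of isotype cells had at least 5 UMIs, and lie close together in macrophages.

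With the top barcode of each library left out, no other member's tag had as high a ratio in T cells as PD-1, whose log2 ratio was then 2.27. The TIM-3 tag ratio in T cells, 57.8, rested on the same anti-CD40 barcode, which held 12239 of 12747 TIM-3 tag UMIs along with 182 macrophage and 92 B cell marker UMIs. The TIM-3 medians were 1 and 0, and without the top barcode of each library the log2 ratio was 1.41. The CTLA-4 tag was at 2.70 and 2.79 per 10000 in T cells, a ratio of 0.97 (0.84 to 1.12), beside the 4.42-fold transcript ratio. A single isotype barcode held 85 of the 249 isotype CTLA-4 tag UMIs, and without the top barcode of each library the log2 ratio was 0.44. CTLA-4 is known to reside largely inside the cell. The CD160 tag was at 4.49 and 3.799 per 10000 in all T cells, a ratio of 1.18 (1.05 to 1.34), but at 11.7 and 18.2 in the macrophage-free ones, a ratio of 0.65 (0.54 to 0.78). There too a single isotype barcode held 85 of 169 UMIs, and in all T cells the log2 ratio was 0.56 without the top barcode of each library and 0.24 with it. In CD8 T cells the CD160 tag was at 4.81 and 1.02 per 10000, a ratio of 4.71 (3.17 to 7.32), and in macrophage-free CD8 T cells the ratio was 3.19 (1.83 to 6.07), from 276 and 13 UMIs. In NK cells the CD160 tag was at 6.05 and 3.74 per 10000, a ratio of 1.62 (1.33 to 1.98). Anti-CD40 T cells with a Cd160 UMI had a median of 3 CD160 tag UMIs and those without a median of 1. The TIGIT tag had 41 and 5 UMIs in all T cells, too few to describe.

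Ligands of the members were measured in other classes of the same hearts. Cd274, which encodes the PD-1 ligand PD-L1, was at 854 CPM in anti-CD40 and 75.6 CPM in isotype neutrophils, at 674 and 39.9 CPM in endothelial cells, and at 75.5 and 5.25 CPM in macrophages. It was also higher in barcodes of the anti-CD40 T cell gate, at 84.9 and 13.5 CPM (6.31-fold, 4.19 to 9.93). Many of these barcodes carried macrophage transcripts, and the part of macrophage RNA in these Cd274 values was not tested. Lgals9, which encodes the TIM-3 ligand galectin-9, was at 126 and 74.2 CPM in macrophages and at 318 and 125 CPM in endothelial cells. Cd86, a CTLA-4 ligand, was not higher in macrophages, at 158 CPM in the anti-CD40 and 211 CPM in the isotype library. Pvr, a TIGIT ligand, was at 9.98 and 14.2 CPM there, while Nectin2, another TIGIT ligand, went the other way at 6.90 and 1.43 CPM. Tnfrsf14, which encodes the CD160 ligand HVEM, was at 4.34 and 1.59 CPM in macrophages. No UMI of Fgl1, a LAG-3 ligand, was counted in any class.

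Other gene lists place the members among lymphocyte genes. Of 16 other inhibitory receptors with 30 UMIs in T cells, 4 were at least 1.5-fold higher and 3 lower, with a median log2 ratio of 0.01. Klrg1, a receptor of effector cells, was at 43.4 and 8.97 CPM, Cd72, a receptor of B cells and myeloid cells, at 155 and 73.5 CPM, Lair1, a collagen receptor, at 239 and 88.0 CPM, and Btla, the HVEM receptor of resting lymphocytes, at 5.74 and 63.9 CPM. Btla and Siglecg (5.10 and 79.1 CPM) are also genes of B cells, whose markers were higher in isotype T cells, and the part of B cell RNA in these values was not tested. Macrophage markers were higher in anti-CD40 T cells, at 10759 and 7674 CPM. The part of macrophage RNA in the Cd72 and Lair1 values was not tested. In NK cells 2 of 12 were higher and 1 lower.

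Of 12 costimulatory receptors in T cells, 3 were higher and 2 lower. Tnfrsf9, which encodes 4-1BB, had 99 anti-CD40 UMIs and 1 isotype UMI. Cd226, the rival of Tigit, was at 118 and 39.8 CPM, and Tnfrsf4, which encodes OX40, at 21.4 and 3.93 CPM. Slamf6, a receptor of less differentiated T cells, was at 36.5 and 80.8 CPM. Of 19 transcription factors of activation and exhaustion, 5 were higher and 6 lower (median -0.17): Tbx21, a driver of cytotoxic fate, was at 40.04 and 12.3 CPM, Prdm1, a repressor found in terminal effector cells, at 24.4 and 10.7 CPM, and Tcf7 at 12.3 and 109 CPM. In NK cells none of 18 was higher and 8 were lower, among them Eomes, an NK cell identity factor, at 70.1 and 223 CPM. Of 15 signalling partners in T cells 2 were higher and 1 lower (median 0.27). Sh2d1a, the adaptor SAP, was at 55.5 and 30.3 CPM, Lat, a scaffold of T cell receptor signalling, at 163 and 99.3 CPM, and Grap2, an adaptor, at 64.8 and 104 CPM.

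Effector genes were higher in 9 of 14 in T cells (median log2 ratio 1.48), led by Gzmb, a granule protease, with 1752 and 9 UMIs. Gzmk, another protease, had 564 anti-CD40 UMIs and 0 isotype UMIs, at least 53.5-fold higher. Ifng was at 212 and 17.9 CPM, and Ccl3, a chemokine, ran the other way at 129 and 253 CPM. All 10 cell cycle genes were higher (median 2.12), and 9 of 12 naive and memory genes were lower (median -2.25), with Ccr7, a lymph node homing receptor, at 3.67 and 167 CPM. Among 5 genes of regulatory T cells, 1 was higher. The 9 ligand genes with 30 UMIs in T cells had 2 higher and 1 lower.

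The genes whose level ran most like each member were taken over 16 class and library pools of at least 50 cells, by Pearson's r of log2 (CPM + 10), as a description over pools that share libraries. Gzmk ran most like Pdcd1 (r = 0.95), Stil, a centriole gene, most like Lag3 (0.94), and Nupr1, a stress-response gene, most like Havcr2 (0.96). Trgv2, a gamma-chain T cell receptor segment, ran most like Ctla4 (0.99), Ifng, encoding interferon gamma, most like Cd160 (0.98), and Trbc1 most like Tox (0.97). The next 2 genes were Depdc1a and Gzmc for Pdcd1, Cdca2 and Sgo2a for Lag3, Rnpep and Naaa for Havcr2, Tcrg-C2 and 1500009L16Rik for Ctla4, Zap70 and Gm14029 for Cd160, and Trbc2 and Zap70 for Tox. Tigit had too few UMIs.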

How the data were processed

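Cell Ranger 6.0.1 stands in the header lines of both matrices. Cell Ranger 3, Seurat 3, mm10 and GRCh38 are named, without roles, by the submitters' processing notes. The deposited values are raw UMI counts per feature and barcode, for 32285 genes and 198 antibody tags, without normalization. Barcodes, features and their mapping to samples are the authors' own. The labels' protocols name the 10x Genomics Chromium 5′ chemistry. Total gene UMIs were 53736318 in the anti-CD40 and 26847799 in the isotype library.

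UMIs were summed per class and library with Python 3.11.15, numpy 2.4.6, scipy 1.17.1 and pandas 2.3.3, and expressed as CPM with exact Poisson intervals, shares with Clopper-Pearson intervals and ratios with exact conditional binomial intervals, all 95% and for counting error only. Ratios against 0 UMIs were set against 3 counts. With 1 library per group, no p-value was computed. TMM and median-of-ratios factors came from edgeR 4.0.16 and DESeq2 1.42.0 in R 4.3.3. The interval code was tested on simulated data. Cells passing both lymphocyte gates were counted as T cells, and cells passing other gates were kept.

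Members and gene lists were chosen with earlier results of these data known. The minimums of the gates other than T and NK (10 UMIs for B cells, 20 for macrophages, 10 for monocytes, 50 for neutrophils, 10 for endothelial cells), the macrophage-free limit of 10 UMIs, the tag minimum of 5 UMIs, the leaving of the monocyte gate out of the exclusion of other classes, and the choice of which results to list in full were set after values had been seen. All 7 members were named in every class. From each list, genes were named from the 3 highest and 3 lowest log2 ratios, along with ligands and partners of the members, and the 3 genes most like each member. 3 further promoter entries, 1 of Tigit and 2 of Cd160, were searched but are not shown; Tigit held 2 NFAT cores, and of the Cd160 entries 1 held 1 NFAT core and 1 TTCNNNGAA motif. The settings with macrophage-free cells, with Cd3 scaling and without top barcodes were chosen after seeing the data.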

Additional observations from a re-analysis of the deposited data

Results flagged for a closer look

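Tox was singled out because its direction was opposite in the lymphocyte classes: the log2 ratio was -0.13 in NK cells (-0.63 to 0.37) and 1.04 in T cells (0.67 to 1.39). The NK interval includes 0, the value was 0.02 with TMM scaling and 0.01 both with median-of-ratios scaling and as a mean over cells, so its sign was not stable, and the difference between the classes was not tested.

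Tox was also present in barcodes that the cell filter removed. The 59 removed anti-CD40 barcodes that passed the T gate held 24 Tox UMIs, or 135.2 CPM (86.7 to 201), and the 20 removed isotype barcodes held 2 UMIs, or 21.4 CPM (2.59 to 77.2).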

How the results depend on the processing

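The number of members at least 1.5-fold higher in T cells was 6 of 6, against 10.2% of 10417 genes. In NK cells it was 2 of 5, against 9.46% of 8212 genes. With a prior of 50 CPM it was 1 in each class, and the share of all genes at that prior was not counted. The T cell count was 5 without cells that pass another gate, in macrophage-free cells, as a mean over cells and with Cd3 scaling. The member that fell short was Cd160, at log2 ratios of 0.41, 0.37 and 0.52, and with Cd3 scaling Havcr2, at 0.56. The NK cell count ranged from 1 to 3. Both counts stayed within 1.5 times the reported count under every setting other than the prior of 50 CPM. The Pdcd1 log2 ratio in T cells was 2.30. It was 1.88 with the gate minimum 1 UMI lower, 2.56 with it 2 UMIs higher, 3.11 without cells that pass another gate, 2.58 in CD8 cells, 4.18 and 0.92 with priors of 1 and 50 CPM, 2.63 as a mean over cells and 2.62 with cells thinned to 1000 UMIs. Added after seeing the data, macrophage-free T cells gave 2.68 and macrophage-free CD8 T cells, only 16 of them isotype, 3.81.

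The PD-1 tag log2 ratio in T cells was 2.08 and reversed to -0.43 when scaled to control antibody tags, which rests on 1 barcode; without the barcode of each library with the most control tags it was 2.50. It was 3.03 without cells that pass another gate, 2.52 in macrophage-free cells and 2.27 without the top PD-1 barcode of each library. The TIGIT tag log2 ratio of 1.36 reversed to -1.14 under control tags and to -0.07 as a median centred log ratio; the cause of the second was not tested.

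Of the other 219 values recomputed, 133 stayed within their counting interval, 84 moved beyond it and 2 reversed. Leaving out cells in both lymphocyte gates cannot change NK cells, which exclude them already. No paired analysis was possible because the labels give no replicate numbers and each group is 1 library. Depth limits Tigit, Pdcd1 in isotype cells, and CD8 and CD4 subsets of the isotype library.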

Other observations

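Cycling cells, those with a UMI of Mki67 or Top2a, made up 62.0% of anti-CD40 and 14.9% of isotype T cells, and 42.5% and 11.03% of NK cells. Within anti-CD40 T cells, Lag3 was lower in cycling than in other cells, at 29.6 and 46.1 CPM, a ratio of 0.64 (0.48 to 0.87). Pdcd1, Havcr2, Ctla4, Cd160 and Tox had ratios between 0.79 and 1.095 there, with intervals that included 1. In isotype T cells, Ctla4 was at 27.6 CPM in cycling and 2.11 CPM in other cells, a ratio of 13.1 (3.37 to 74.0) from 10 and 3 UMIs. In anti-CD40 NK cells, Cd160 was at 47.6 CPM in cycling and 95.8 CPM in other cells, a ratio of 0.50 (0.35 to 0.71). Cycling cells were deeper, with medians of 17013 and 7351 UMIs in anti-CD40 T cells, and the part of depth and of macrophage transcripts in these values was not tested.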
